A study of Gallus gallus with 8 samples.

Results

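Retinoic acid signalling and proximal limb identity were followed through 8 genes in distal wing bud mesenchyme of the chick: ALDH1A2, ALDH1A3, CRABP1, CYP26B1, RARB, MEIS1, MEIS2 and PBX3. They were chosen by name, with earlier results of these data known. Their reads were summed from RefSeq transcripts, as for the 14612 genes matched in all. RNA sequencing of total RNA was compared between HH24g (2 libraries), HH27 (3 libraries) and HH24 (3 libraries), where HH is the Hamburger Hamilton stage. HH24g was mesoderm of CMV-GFP transgenic donors, which carry green fluorescent protein throughout the body. A 150 µm strip from HH20 wing buds was freed of ectoderm, cut up, placed beneath the apical ectodermal ridge (AER, the thickened epithelium at the wing tip) of wild type HH24 hosts and collected after 24 h. HH27 and HH24 tissue was wild type and untreated. The study's methods place the HH27 tissue in the opposite wing of the host and the HH24 tissue in other embryos, and state that each replicate experiment pooled several pieces of tissue. All eggs were kept at 37 °C. The grafts thus had the age of HH24 tissue and lay in a wing that had reached HH27, but the transgene and the operation also set HH24g apart from both other groups and cannot be told apart from age and position.

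Retinoic acid is made from vitamin A (retinol), which is oxidised to retinaldehyde and then, by the ALDH1A enzymes, to the acid. In the cell it is carried by CRABP proteins, activates nuclear receptors of the RAR family, and is broken down by CYP26 enzymes. In the early limb bud it comes from the flank and favours proximal identity, which is marked by the homeodomain proteins MEIS1 and MEIS2 and their PBX partners. Fibroblast growth factors from the AER induce Cyp26b1 and so keep the distal tip low in retinoic acid.

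Levels are given as CPM, counts per 1000000 reads of a library, with library sizes adjusted by TMM (the trimmed mean of M-values, which evens out differences in composition). These sizes ranged from 2003500 to 3273297 reads in HH24g, from 1029752 to 3849969 in HH27 and from 128271 to 1022438 in HH24. The smallest, HH24 replicate 2, stood apart. Only 9.24% of its reads matched a gene, against 45.5% to 67.6% in the other libraries, and 1 of its reads is worth 7.80 CPM. Its 287226 matched reads became an adjusted size of 128271 once low counts were filtered and TMM applied. Its CPM values, and the HH24 means, depend on that step. Values from it are also coarse, and differences from HH24 are in part also given without it. The study left out 1 HH24 sample and 1 HH24g sample after quality control. The labels do not say which HH24 sample it was, and the series holds 2 HH24g libraries. Markers of limb mesenchyme, the labelled tissue, were all expressed (10 of 10 tested), with a summed level of 1129 to 1148 CPM in HH24g, 1078 to 1197 in HH27 and 1115 to 1207 in HH24. Single markers were less alike than the sums. In HH24g, PRRX1 and PDGFRA lay above all other libraries, and FGF10 and HOXD11 lay below all. The p-values measure the spread between these libraries.

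CRABP1, PBX3 and ALDH1A3 were higher in HH24g than in HH27, by 4.24-fold, 2.88-fold and 2.44-fold. These were 3 of the 7 genes that could be tested, where 1.02% of the 9062 genes tested were called higher in HH24g and 1.71% were called in either direction. The genes, and the lists used below, were chosen with earlier results of these data known. Shares over all genes are thus given as background and are no test of the set. Calls needed an adjusted p under 0.05 (limma voom, with the Benjamini-Hochberg method over all 9062 genes) and a log2 fold change over 1 in size. Counts in pooled tissue do not separate fewer cells of a kind from less RNA per cell. In HH24g against HH24 none of the 7 was called (0.011% of all genes), 3 had an unadjusted p under 0.05 (11.3% of all genes), edgeR called 0 and DESeq2 called 1 (ALDH1A3). In HH27 against HH24 none of the 7 was called (1.07% of all genes, 0.463% higher and 0.607% lower in HH27), 3 had an unadjusted p under 0.05 (15.3% of all genes), edgeR called 0 and DESeq2 called 1 (CYP26B1). At an unadjusted p under 0.05, 5 of the 7 genes passed in HH24g against HH27, against 17.2% of all genes.

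**Figure D1:**
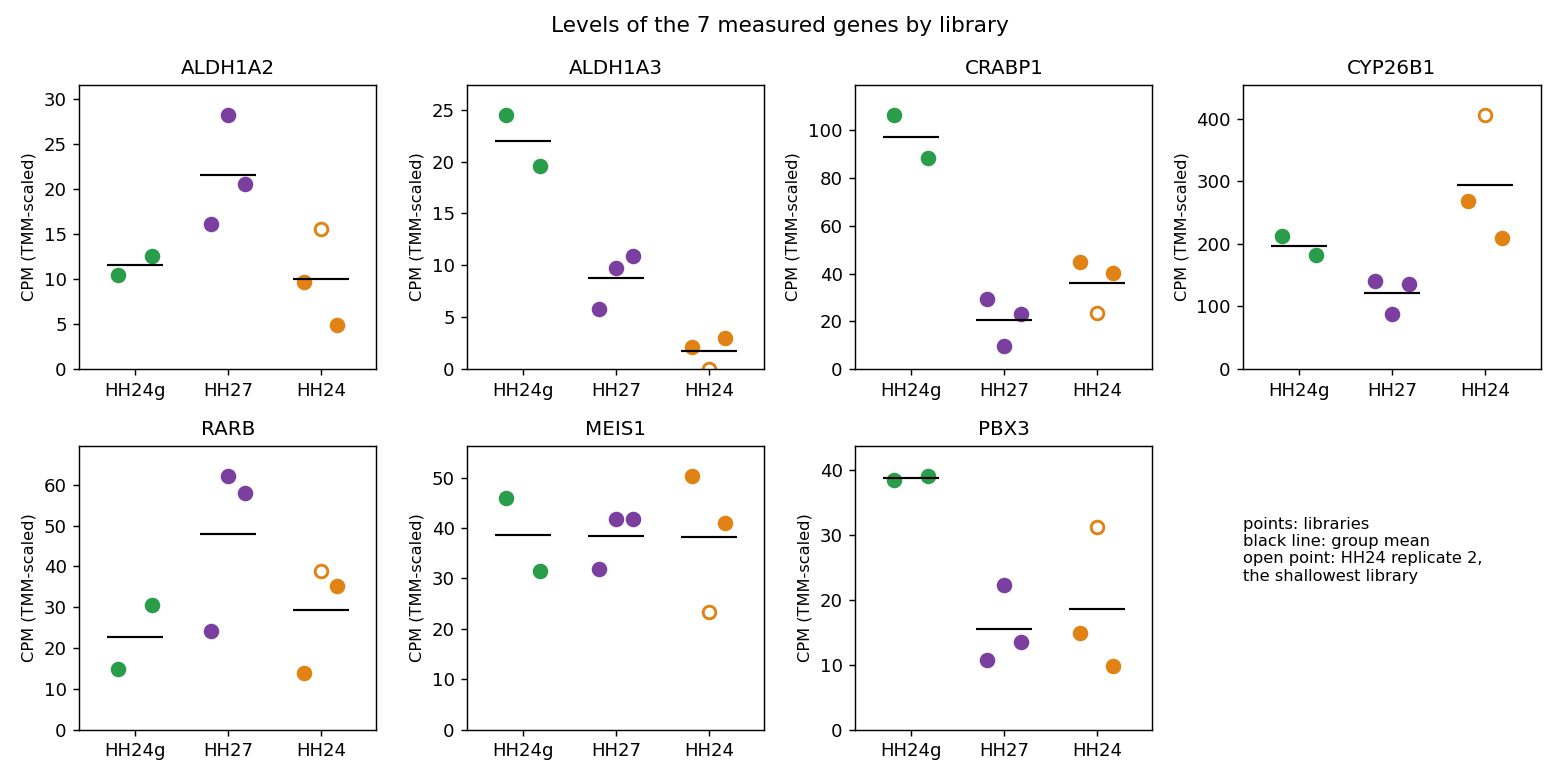
Level of each of the 7 measured genes in TMM-scaled CPM (y axis, from 0) in HH24g, HH27 and HH24 libraries (x axis). Points are libraries, black lines are group means and the open point is HH24 replicate 2. CRABP1 and ALDH1A3 lie higher in both HH24g libraries than in any other library, while the MEIS1 values of the 3 groups overlap.

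The libraries of HH24g and HH27 did not overlap for 5 of the 7 genes. ALDH1A3, CRABP1, CYP26B1 and PBX3 lay above in HH24g and ALDH1A2 below, where 16.3% of all genes lay above and 16.4% below (32.7% in all). Against HH24, the HH24g libraries lay above for ALDH1A3, CRABP1 and PBX3 (16.2% of all genes) and below for none (10.9%). Between HH27 and HH24, ALDH1A2 and ALDH1A3 lay above in HH27 (13.7% of all genes) and CYP26B1 below (9.94%). The median log2 fold change of the 7 genes was 0.63 in HH24g against HH27, 0.67 in HH24g against HH24 and 0.06 in HH27 against HH24. Over all genes it was -0.01, 0.02 and 0.03. These shares and medians are background as well, since the 7 genes were chosen with earlier results known.

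Of the enzymes that make retinoic acid, ALDH1A3 (Raldh3) was the one called. It stood at 24.5 and 19.6 CPM in HH24g, at 5.75, 9.71 and 10.9 CPM in HH27, and at 2.14, 0 and 2.93 CPM in HH24. The 3 groups did not overlap, and HH24g was highest. The log2 fold change of HH24g against HH27 was 1.29 ± 0.27 (SE, limma voom adjusted p = 0.0373). This call was lost in 14 of 20 alternative fits, among them edgeR (adjusted p = 0.256) and DESeq2 (adjusted p = 0.168). The 14 include 7 of the 8 fits that left out a library (all but HH27 replicate 3). Over the 20 fits the log2 fold change stayed between 0.98 and 1.69. Against HH24 the log2 fold change was 2.77 ± 0.84 (limma voom adjusted p = 0.260) and 2.83 without HH24 replicate 2 (adjusted p = 0.510). DESeq2 called that difference (log2 fold change 3.19, adjusted p = 0.00624). The HH24 libraries held 2, 0 and 3 ALDH1A3 reads, so that the size of the fold rests on 5 reads and is imprecise.

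ALDH1A2 (Raldh2), the main enzyme of retinoic acid synthesis in the trunk and flank of vertebrate embryos, had another order. It stood at 10.5 and 12.5 CPM in HH24g, at 16.1, 28.2 and 20.5 CPM in HH27, and at 9.63, 15.6 and 4.89 CPM in HH24. HH27 was highest and did not overlap with either of the other groups, which overlapped each other. Log2 fold changes were -0.73 in HH24g against HH27 (95% interval -1.35 to -0.12, limma voom adjusted p = 0.214) and 1.40 in HH27 against HH24 (0.40 to 2.39, adjusted p = 0.178). The second value was 1.46 without HH24 replicate 2 (adjusted p = 0.392). HH24g against HH24 gave 0.67 (-0.41 to 1.74, limma voom adjusted p = 0.638). None of these passed the test.

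The balance of reads between both enzymes set HH24g apart from the other groups, which overlapped. Per kilobase of transcript, the ratio of ALDH1A3 to ALDH1A2 was 1.92 and 1.27 in HH24g, 0.293, 0.280 and 0.437 in HH27, and 0.183, 0 and 0.489 in HH24. ALDH1A3 was thus the more abundant of the pair in both HH24g libraries and the less abundant in all 6 others. This ratio was chosen after the values were seen and was not tested, and in HH24 it rests on 11, 2 and 8 reads of both genes. The tables held 1 of 4 annotated transcripts of ALDH1A2 and 1 of 2 of ALDH1A3, so that ratios between genes and levels per kilobase may be incomplete.

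CRABP1, a cytoplasmic protein that binds retinoic acid, had the largest change called among the 7 genes. It stood at 106 and 88.3 CPM in HH24g, at 29.1, 9.71 and 23.1 CPM in HH27, and at 44.9, 23.4 and 40.1 CPM in HH24. Both HH24g libraries lay far above all others. The log2 fold change of HH24g against HH27 was 2.09 ± 0.24 (SE, 95% interval 1.53 to 2.64, limma voom adjusted p = 0.00314), and the call was kept in all 20 alternatives that tested the gene (adjusted p from 8.24e-07 to 0.0264). Against HH24 it was 1.19 (95% interval 0.48 to 1.90, limma voom adjusted p = 0.196) and 1.16 without HH24 replicate 2 (adjusted p = 0.285), so that this difference did not pass. HH27 against HH24 gave -0.90 (95% interval -1.69 to -0.11, limma voom adjusted p = 0.272), with overlapping libraries.

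CYP26B1, the enzyme that clears retinoic acid from the distal limb, stood at 213 and 182 CPM in HH24g, at 141, 88.4 and 135 CPM in HH27, and at 269, 405 and 209 CPM in HH24. HH27 was lowest and did not overlap with either of the other groups, while HH24g overlapped with HH24. In HH27 against HH24 the log2 fold change was -0.99 ± 0.21 (SE, 95% interval -1.47 to -0.51, limma voom adjusted p = 0.0596) and -0.90 without HH24 replicate 2 (adjusted p = 0.102). It was not called, whereas DESeq2 called it (log2 fold change -1.20, adjusted p = 1.26e-04). HH24g against HH27 gave 0.63 (95% interval 0.18 to 1.09, limma voom adjusted p = 0.145), and HH24g against HH24 gave -0.36 (-0.85 to 0.13, adjusted p = 0.566). CYP26B1 was also set against ALDH1A2 and ALDH1A3 together, per kilobase. It was 6.04 and 5.50 times as abundant in HH24g, 5.96, 2.10 and 4.02 times in HH27, and 20.9, 23.0 and 24.9 times in HH24. Every HH24 library lay above all others, but on the same few reads of both enzymes. This ratio too was chosen after the values were seen and carries no test. It leaves out ALDH1A1, a further ALDH1A enzyme, which did not pass the filter on low counts. ALDH1A1 stood at 3.49 and 2.44 CPM in HH24g, at 1.15, 4.86 and 3.12 CPM in HH27, and at 4.28, 0 and 3.91 CPM in HH24.

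CYP26B1 was covered by 2 transcripts, which divided its reads unequally. XM_015286068.1 (4089 nt) stood at 135 and 134 CPM in HH24g, at 65.9, 64.1 and 72.2 CPM in HH27, and at 105, 195 and 121 CPM in HH24. XM_015286069.1 (3876 nt) stood at 77.9 and 47.4 CPM in HH24g, at 75.1, 24.3 and 63.1 CPM in HH27, and at 164, 210 and 88.0 CPM in HH24. The longer transcript separated HH24g from HH27 cleanly, and the shorter one overlapped between them. When all 22662 tested transcripts were fitted as features (0.168% called in HH24g against HH27, 0.00883% in HH24g against HH24 and 0.0177% in HH27 against HH24), the longer one had a log2 fold change of 0.98 ± 0.12 (SE, limma voom adjusted p = 0.0367), just under the limit of 1 set for a call. With 1 library left out the adjusted p ranged from 0.0499 to 0.123. The shorter one had -0.04 (95% interval -1.01 to 0.94, limma voom adjusted p = 0.989). The difference between both responses did not pass the diffSplice test of limma over 3036 genes, either in HH24g against HH27 (adjusted p = 0.239) or in HH24g against HH24 (adjusted p = 0.300). Reads that fit both transcripts were shared out by estimation, and the error of that step is not in these values.

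**Figure D2:**
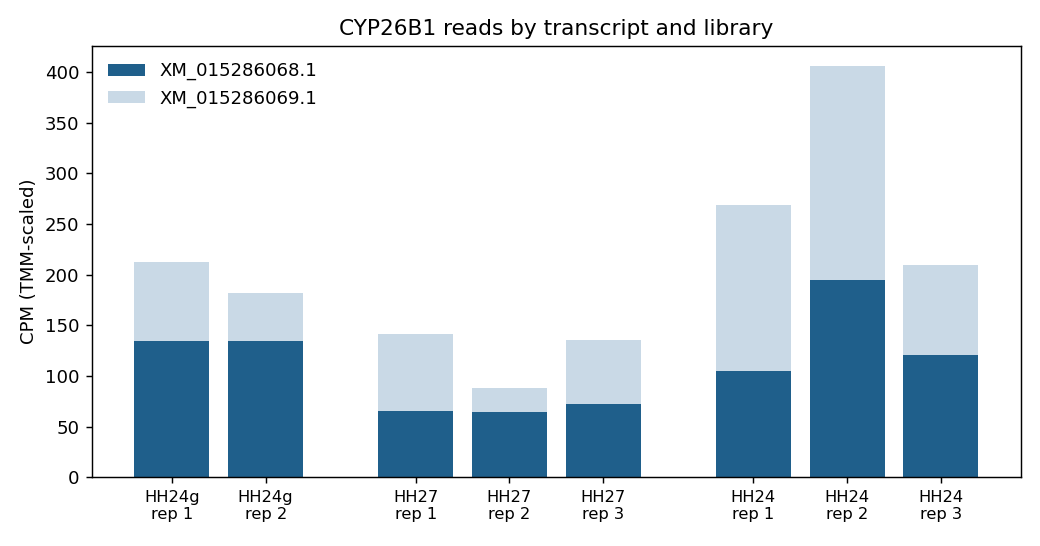
Level of the 2 CYP26B1 transcripts in TMM-scaled CPM (y axis, stacked bars from 0) in each library (x axis). The dark bar, XM_015286068.1, reaches 134 to 135 CPM in HH24g and 64.1 to 72.2 CPM in HH27, while the pale bar varies within each group.

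RARB encodes a retinoic acid receptor and is itself a well-known transcriptional target of retinoic acid. It stood at 15.0 and 30.6 CPM in HH24g, at 24.1, 62.2 and 57.9 CPM in HH27, and at 13.9, 39.0 and 35.2 CPM in HH24. Replicate 1 was the lowest library of each group, and all 3 groups overlapped. The log2 fold change was -0.86 in HH24g against HH27 (95% interval -1.98 to 0.25, limma voom adjusted p = 0.423), -0.02 in HH24g against HH24 (-1.67 to 1.64, adjusted p = 0.996) and 0.85 in HH27 against HH24 (-0.64 to 2.34, adjusted p = 0.592). These intervals are wide, and changes of about 3-fold in HH24g against HH24 lie inside them. The transcript NM_205326.1 held 71.7% of the RARB reads, with XM_015281315.1 (12.2%) and XM_015281314.1 (10.4%) drawing theirs from few libraries. The tables held 5 of 11 annotated transcripts of RARB, so that its level may be incomplete.

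MEIS1, a homeodomain protein of the proximal limb, was at like levels in all groups. It stood at 45.9 and 31.5 CPM in HH24g, at 31.8, 41.8 and 41.8 CPM in HH27, and at 50.3, 23.4 and 41.1 CPM in HH24. The 3 groups overlapped fully. Log2 fold changes were -0.04 in HH24g against HH27 (95% interval -0.49 to 0.42, limma voom adjusted p = 0.949), -0.27 in HH24g against HH24 (-0.91 to 0.36, adjusted p = 0.751) and -0.24 in HH27 against HH24 (-0.84 to 0.37, adjusted p = 0.727). A change of 2-fold in either direction lies outside each of these intervals. The transcripts XM_015278039.1, NM_001139477.1 and XM_015278041.1 held 67.3%, 21.1% and 11.6% of the MEIS1 reads. The tables held 3 of 4 annotated transcripts of MEIS1.

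MEIS2, its close relative, could not be measured. It had 1 read, in HH24 replicate 2, and did not pass the filter on low counts. Of its 21 transcripts in the RefSeq annotation used for gene names (assembly GRCg7b), 1 was found in the tables, so that this read says nothing about the level of the gene.

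PBX3, a DNA-binding partner of MEIS proteins, was higher in the grafts. It stood at 38.4 and 39.1 CPM in HH24g, at 10.7, 22.3 and 13.5 CPM in HH27, and at 15.0, 31.2 and 9.78 CPM in HH24. HH24g lay above every other library, the closest being HH24 replicate 2, where 31.2 CPM is 4 reads. The log2 fold change of HH24g against HH27 was 1.53 ± 0.22 (SE, 95% interval 1.03 to 2.02, limma voom adjusted p = 0.00783). The call was lost in 4 of 20 alternatives, by edgeR (adjusted p = 0.194), DESeq2 (adjusted p = 0.0578), with a replicate block (adjusted p = 0.0852) and without HH24g replicate 2 (adjusted p = 0.0570). Against HH24 the log2 fold change was 1.59 ± 0.34 (SE, limma voom adjusted p = 0.120), and 1.66 without HH24 replicate 2 (adjusted p = 0.255). HH27 against HH24 gave 0.06 (95% interval -0.74 to 0.87, limma voom adjusted p = 0.958). As for MEIS2, not all annotated transcripts of PBX3 were in the tables (1 of 8), and its level may be incomplete.

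**Figure D3:**
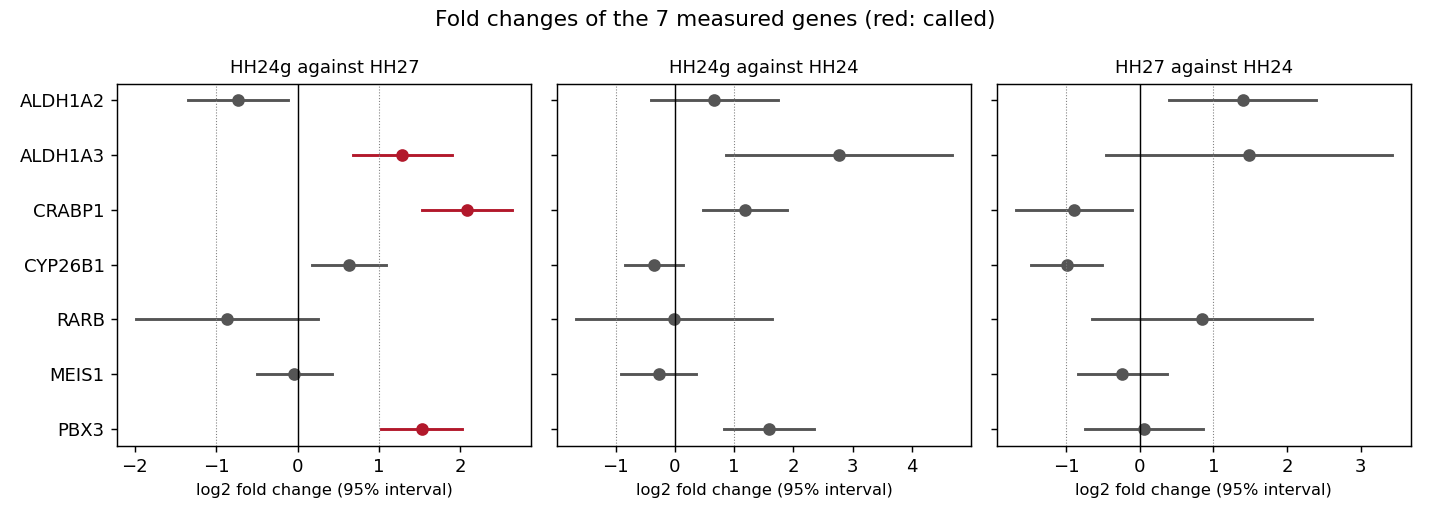
Log2 fold change with its 95% interval (x axis) for the 7 measured genes (y axis) in each of the 3 contrasts, from limma voom. Red marks a call, and dotted lines mark log2 fold changes of -1 and 1. CRABP1, PBX3 and ALDH1A3 are called in HH24g against HH27, and the intervals of ALDH1A3 against HH24 are the widest.

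The sums of endothelial, leukocyte, and glial and neural crest markers were also higher in HH24g than in both other groups. Most single markers of these lists were not. CLDN5, PTPRC and FABP7 alone lay above all HH27 and HH24 libraries in both HH24g libraries. CDH5, TIE1 and LAPTM5 lay above all HH27 libraries in both, but not above all HH24 libraries. KDR, PECAM1, TEK, ERG, EGFL7, CD74 and SPI1 overlapped between HH24g and HH27, as did every glial and neural crest marker but FABP7 and SOX10. SOX10 was lower in HH24g (0.998 and 0.306 CPM) than in HH27 (1.53, 4.86 and 1.04 CPM), on very few reads. Endothelial markers (8 of 9 matched) summed to 219 to 237 CPM in HH24g, 158 to 179 CPM in HH27 and 131 to 210 CPM in HH24. Leukocyte markers (4 of 6 matched) summed to 32.4 to 37.3 CPM in HH24g, 21.4 to 28.7 CPM in HH27 and 22.5 to 31.2 CPM in HH24. Glial and neural crest markers (8 of 10 matched) summed to 127 to 148 CPM in HH24g, 74.0 to 107 CPM in HH27 and 105 to 113 CPM in HH24, mostly from FABP7, with at most 5 reads of SOX10 in any library. Their part in the higher CRABP1, PBX3 and ALDH1A3 of HH24g was not tested. Ectoderm markers summed to 149 to 170 CPM in HH24g, 175 to 211 CPM in HH27 and 167 to 265 CPM in HH24. Singly, FGF8 and CDH1 were lower in both HH24g libraries than in all HH27 libraries, and the other ectoderm markers overlapped. The part of ectoderm in the differences between groups was not tested. Myogenic markers had at most 5 reads in a library, with MYOG at 0 throughout. Erythroid markers summed to 549 to 1022 CPM in HH24g, 302 to 1624 CPM in HH27 and 2750 to 3323 CPM in HH24, and their part in the contrasts with HH24 was not tested.

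Per kilobase of effective transcript length, CRABP1 was the most abundant of the 7 genes in HH24g, with a mean of 144 CPM per kilobase, ahead of CYP26B1 (51.0), MEIS1 (19.3), PBX3 (13.9), RARB (11.3), ALDH1A3 (5.39) and ALDH1A2 (3.44). Among neighbours in this order, the libraries of PBX3 and RARB overlapped. In HH27 the order was CYP26B1 (31.6), CRABP1 (30.4), RARB (22.7), MEIS1 (20.3), ALDH1A2 (6.45), PBX3 (5.58) and ALDH1A3 (2.15). Each gene from CYP26B1 to RARB overlapped with the next, as did ALDH1A2 with PBX3, while MEIS1 did not overlap with ALDH1A2. In HH24 it was CYP26B1 (76.9), CRABP1 (53.2), MEIS1 (21.3), RARB (14.5), PBX3 (6.69), ALDH1A2 (2.97) and ALDH1A3 (0.413). There CYP26B1 overlapped with CRABP1, and each gene from MEIS1 to PBX3 overlapped with the next. ALDH1A3 was the least abundant in HH27 and HH24 but not in HH24g.

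The wider retinoid pathway was followed in a list of 27 genes, which includes the retinoid genes above. Of these, 23 matched a transcript and 18 were tested. In HH24g against HH27, 3 were called higher (ALDH1A3, CRABP1 and STRA6) and none lower, beside 1.02% and 0.695% of all genes. Of the 18, 10 had an unadjusted p under 0.05 (17.2% of all genes), 6 of them higher and 4 lower. In HH24g against HH24 none was called by limma voom (0.011% of all genes), with 5 at an unadjusted p under 0.05 (11.3% of all genes). In HH27 against HH24 1 was called lower (STRA6, beside 0.607% of all genes), with 8 at an unadjusted p under 0.05 (15.3% of all genes). The medians over the list were 0.10, 0.06 and -0.11.

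STRA6, the cell surface receptor that takes up retinol, stood at 25.0 and 18.6 CPM in HH24g, at 10.7, 11.7 and 9.09 CPM in HH27, and at 26.7, 46.8 and 32.3 CPM in HH24. HH27 was lowest, HH24 highest and HH24g between them, with no overlap. The fall in HH27 against HH24 had a log2 fold change of -1.60 (95% interval -2.17 to -1.03, limma voom adjusted p = 0.0196). It was called without HH24 replicate 2 as well (-1.58, adjusted p = 0.0471), and lost in 5 of 20 alternatives, 3 of which left out HH24 replicate 1 (adjusted p = 0.0743), HH24 replicate 3 (0.144) or HH27 replicate 3 (0.0712). HH24g against HH27 gave 1.05 (0.54 to 1.56, limma voom adjusted p = 0.0425), a call lost in 16 of 20 alternatives, which include each fit without 1 library. HH24g against HH24 gave -0.55 (limma voom adjusted p = 0.423).

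The 2 other enzymes of the CYP26 family differed from CYP26B1 in their levels. CYP26A1 stood at 8.98 and 4.58 CPM in HH24g, at 11.5, 16.5 and 18.2 CPM in HH27, and at 20.3, 31.2 and 28.4 CPM in HH24. HH24g lay below both ungrafted groups, with a log2 fold change of -1.34 against HH27 (limma voom adjusted p = 0.106) and -2.03 against HH24 (limma voom adjusted p = 0.118, and -2.05 with adjusted p = 0.210 without HH24 replicate 2). The second difference was called by DESeq2 (-1.96, adjusted p = 0.00810). CYP26C1 stood at 6.49 and 3.97 CPM in HH24g, at 14.9, 27.2 and 19.5 CPM in HH27, and at 0, 0 and 9.78 CPM in HH24. HH27 lay above all other libraries, with a log2 fold change of -1.92 in HH24g against HH27 (limma voom adjusted p = 0.0603) and 2.79 in HH27 against HH24 (95% interval 0.18 to 5.40, limma voom adjusted p = 0.301). The second value was 1.03 without HH24 replicate 1, 2.88 without HH24 replicate 2, 3.84 without HH24 replicate 3 and 1.75 with a replicate block, and replicate 3 held all reads of the gene in HH24. None of these values passed the limma voom test.

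**Figure D4:**
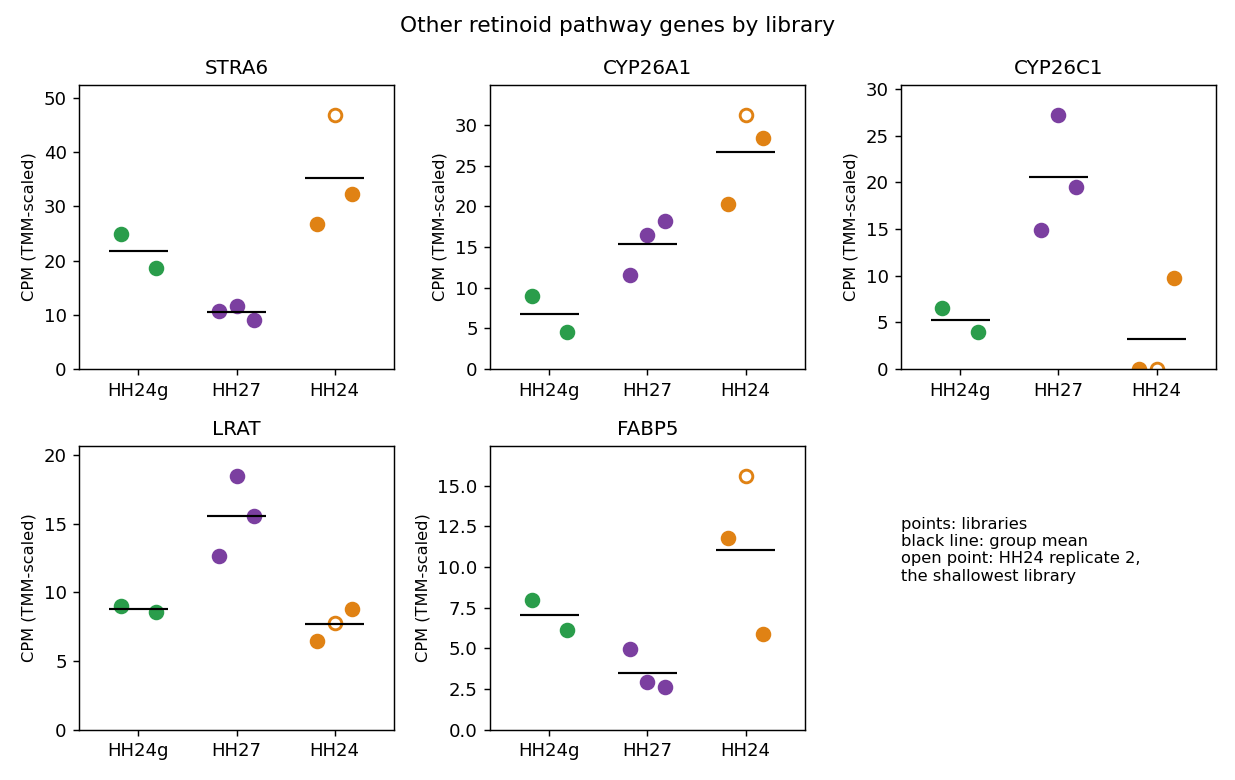
Level of 5 further retinoid pathway genes in TMM-scaled CPM (y axis, from 0) in HH24g, HH27 and HH24 libraries (x axis). Points are libraries, black lines are group means and the open point is HH24 replicate 2. STRA6 is lowest in HH27, CYP26A1 lowest in HH24g, and CYP26C1 and LRAT highest in HH27.

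LRAT, which stores retinol as esters, stood at 8.98 and 8.55 CPM in HH24g, at 12.6, 18.5 and 15.6 CPM in HH27, and at 6.42, 7.80 and 8.80 CPM in HH24. HH27 lay above the other groups, which overlapped. Its log2 fold change was -0.75 in HH24g against HH27 (limma voom adjusted p = 0.144) and 0.87 in HH27 against HH24 (adjusted p = 0.309). FABP5, a fatty acid binding protein that can also carry retinoic acid, stood at 7.99 and 6.11 CPM in HH24g, at 4.98, 2.91 and 2.60 CPM in HH27, and at 11.8, 15.6 and 5.87 CPM in HH24. HH27 was lowest, and the log2 fold change was 1.01 in HH24g against HH27 (limma voom adjusted p = 0.267) and -1.37 in HH27 against HH24 (adjusted p = 0.220, and -1.34 without HH24 replicate 2). RXRA, the partner with which retinoic acid receptors bind DNA, had 9.48 and 12.5 CPM in HH24g, 19.5, 17.5 and 23.9 CPM in HH27, and 0, 15.6 and 13.7 CPM in HH24. Its log2 fold change of 2.62 in HH27 against HH24 (limma voom adjusted p = 0.257) had a 95% interval of 0.38 to 4.86 and rests on HH24 replicate 1, the library at 0. It was 0.57 without that library, 2.82 without HH24 replicate 2, 4.02 without HH24 replicate 3, 1.36 by edgeR, 1.32 by DESeq2 and 1.22 with a replicate block. The corepressor NRIP1 had a log2 fold change of 0.33 in HH24g against HH27 (limma voom adjusted p = 0.211). None of these 4 genes passed the test.

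MEIS and PBX proteins belong to the TALE class of homeodomain proteins, of which 17 genes were listed, 14 matched and 7 were tested. PBX3 in HH24g against HH27 was the sole call, in a contrast where 1.71% of all genes were called. In that contrast 3 of the 7 had an unadjusted p under 0.05 (17.2% of all genes), 1 higher and 2 lower. In HH24g against HH24 none was called by limma voom and 1 of the 7 had an unadjusted p under 0.05, and in HH27 against HH24 none was called and 1 of the 7 had. The shares over all genes in these 2 contrasts were 11.3% and 15.3%, so that neither count stands out from them. PBX4, of the same family, had a log2 fold change of 0.07 (95% interval -0.25 to 0.39) in HH24g against HH27, so that the interval of PBX3 lay above it. PKNOX1, of the family closest to MEIS, had -0.32 (-0.74 to 0.11). TGIF1, a TALE repressor, had -0.32 in HH24g against HH27 (limma voom adjusted p = 0.166) and 0.42 in HH27 against HH24 (adjusted p = 0.206), and TGIF2 had -0.34 in HH24g against HH27 (adjusted p = 0.236). The median over the list was -0.32, 0.02 and 0.06 in the 3 contrasts.

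**Figure D5:**
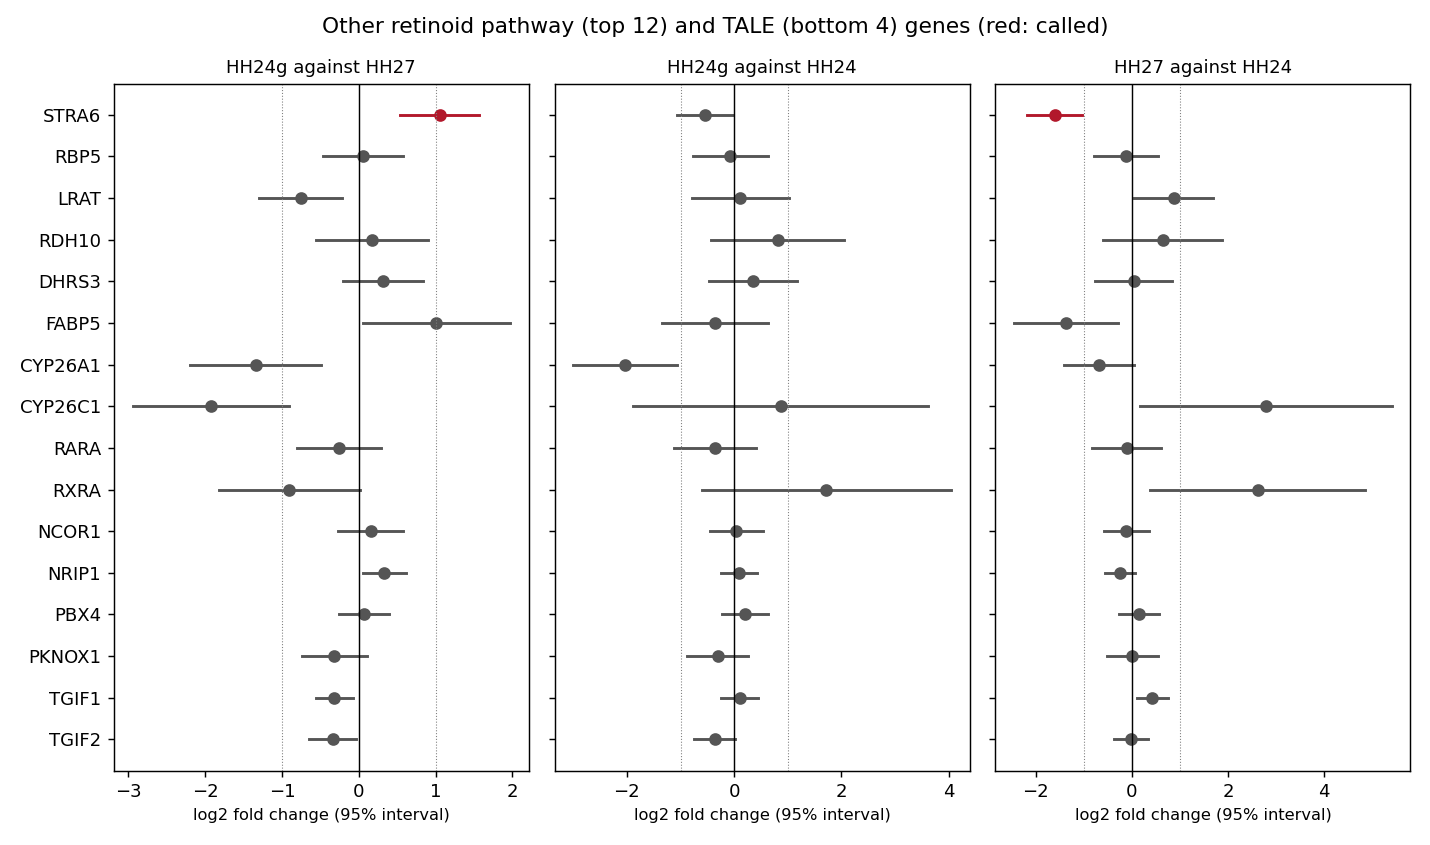
Log2 fold change with its 95% interval (x axis) in each of the 3 contrasts for 12 further retinoid pathway genes (top) and 4 further TALE genes (bottom), from limma voom. Red marks a call, and dotted lines mark log2 fold changes of -1 and 1. STRA6 is the gene called in HH24g against HH27 and in HH27 against HH24.

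For each tested gene, the genes with the closest pattern were found among 7660 genes of at least 10 CPM, by the root mean square difference in centred log2 CPM over the 8 libraries. CRABP1 lay nearest to SMOC1 (0.36), DACT1 (0.45) and LONRF3 (0.49), where the median over all genes searched was 1.06. PBX3 lay nearest to PRSS12 (0.33), LDLRAD4 (0.35) and TYW5 (0.41), CYP26B1 to GRM7 (0.13), HOXA9 (0.14) and RNF44 (0.21), and ALDH1A2 to GPC5 (0.22), COL6A3 (0.27) and TOM1 (0.30). ALDH1A3 lay nearest to S100A6 (0.55), SLC38A2 (0.65) and KIF3A (0.70), RARB to RPL30 (0.41) and SMAD5 (0.42), and MEIS1 to MARS (0.12), USP4 (0.13) and FAHD2A (0.13). Without HH24 replicate 2, SMOC1, PRSS12, GRM7, GPC5 and RPL30 were still among the 3 nearest of their genes, and none of the others named was.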

How the data were processed

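The authors deposited, for each of the 8 libraries, a table of 57399 RefSeq transcripts with estimated counts, which need not be whole, effective lengths and TPM. The submitters' processing notes name HISAT2 2.0.2, Salmon, limma and the build galGal4. Which program wrote the tables is not given in the sources used here. Libraries were stranded total RNA after removal of ribosomal RNA.

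Accessions without version were matched to RefSeq genes of the assembly GRCg7b, used for names alone (26660 transcripts, 14612 genes). Estimated counts were summed per gene and rounded. Reads without a gene stayed out of library sizes. Genes passing filterByExpr (minimum count 10, minimum total 15) were scaled by TMM and fitted together with limma voom, each group having its own mean. The deposited TPM values served only for an alternative in which counts were rebuilt from them.

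The 8 genes, the lists and the tests were chosen with earlier results of these data known. The text names the 8 genes, list genes called or with an unadjusted p under 0.05 (others as background), the 3 nearest genes of each, and transcripts with at least 5% of a gene's reads. A few genes that this rule takes are not reported here. Markers of other cell types were summed per library. Other fits tried were DESeq2, its size factors alone, the quasi-likelihood test of edgeR, other filters, no fold limit, quality weights and only 2 groups. A replicate block, removal of 9 haemoglobin, mitochondrial or ribosomal RNA features, unmatched transcripts as features, and each library left out were tried as well. Counts rebuilt from TPM, HH24 replicate 2 and HH27 replicate 2 left out together, and transcripts as features were chosen after seeing the data. No 2 libraries of the same group agreed within sampling noise. The fit was also run on simulated data, with larger planted changes than those of PBX3 and ALDH1A3 in HH24g against HH27. That run cannot speak for these calls. Statistics ran in DESeq2 1.42.0, edgeR 4.0.16 and limma 3.58.1 under R 4.3.3. Tables and figures used matplotlib 3.10.9 and pandas 2.3.3 under Python 3.11.15.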

Additional observations from a re-analysis of the deposited data

How the results depend on the processing

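Of the 3 genes called in HH24g against HH27, CRABP1 was called in every alternative that tested it. The count was 1 (CRABP1) by edgeR, by DESeq2 and with a replicate block, and 0 with at least 10 counts in every library, a filter that left only CYP26B1 of the 7 to test. It ranged from 1 to 3 with 1 library left out, and was 1 without HH24g replicate 2. Against HH24, DESeq2 called 1 gene in HH24g and 1 in HH27, and no other alternative called any. Over all genes, 155 were called in HH24g against HH27, 1 in HH24g against HH24, and 97 in HH27 against HH24. In HH24g against HH27 the count was 98 by edgeR, 34 with the strict filter and 288 with no fold limit. In HH24g against HH24 it was 14 by edgeR, 120 by DESeq2, 20 with the strict filter, 2 with quality weights and 3 with a replicate block. It was 0 with no filter, with only the 2 groups compared, with unmatched transcripts added and without HH24 and HH27 replicate 2. In HH27 against HH24 it was 212 by DESeq2, 42 with the strict filter and 161 with no fold limit. It was 36 with unmatched transcripts added and 43 without HH24 and HH27 replicate 2. With 1 library left out the counts ranged from 94 to 149, 0 to 20 and 21 to 93, the lowest of the first without HH24g replicate 2 and the lowest of the third without HH24 replicate 3. Why the counts moved was not tested.

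Signs turned only for values near 0, none of them called. MEIS1 in HH24g against HH27 (-0.04) was 0.00395 by edgeR, 0.00216 by DESeq2, 0.15 with a replicate block, and up to 0.28 with 1 library left out (from -0.26). MEIS1 in HH24g against HH24 ranged from -0.50 to 0.045 with 1 library left out. RARB in HH24g against HH24 (-0.02) was 0.081 with quality weights and 0.020 with unmatched transcripts added. It was 0.019 without HH24 and HH27 replicate 2, and ranged from -0.64 to 0.56 with 1 library left out. PBX3 in HH27 against HH24 (0.06) was -0.023 with no filter, -0.00787 with quality weights and -0.00929 with a replicate block. It was -0.00249 without HH24 and HH27 replicate 2, and ranged from -0.30 to 0.27 with 1 library left out. The transcript XM_015286069.1 in HH24g against HH27 ranged from -0.30 to 0.40. Of the values of single genes and CYP26B1 transcripts, 743 kept direction and call, 39 lost the call, 3 gained it and 22 changed sign. Most of the 743 were not called in the main fit and so had no call to lose. The 39 losses fell on the calls of ALDH1A3 (14 of 20 alternatives) and PBX3 (4 of 20) in HH24g against HH27, and of STRA6 in that contrast (16 of 20) and in HH27 against HH24 (5 of 20).

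Same-numbered libraries did not deviate together (correlation 0.01 and -0.02 between HH24g and HH27). As the deviations of the 2 HH24g libraries mirror each other, this check cannot decide whether the replicate number pairs libraries. HH24 replicate 2 limits depth: 3 of its reads are worth 23.4 CPM, more than ALDH1A2 or ALDH1A3 reached there.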
